A study of Mus musculus with 24 samples.

Results

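The heme biosynthesis enzymes are described here by the bone marrow transcripts of Alas2, Alad, Uros, Urod, Cpox, Ppox and Fech, in the order in which the pathway uses their products. The 7 genes were found by matching the Ensembl identifiers of the expression table, with the version removed, to gene symbols of GENCODE M21, and they are 7 of the 54752 genes in that table. Levels are in TPM, a unit that corrects a transcript's abundance for its length and for the total of its library. All 7 had more than 1 TPM in at least 1 library, as did 12373 genes in all. RNA came from bone marrow cells of 24 male mice on the C57BL/6 background, with a library for each mouse. Wild-type mice kept on the ground (GC-WT), wild-type mice flown to the International Space Station (FL-WT), mice lacking Nrf2 kept on the ground (GC-KO) and mice lacking Nrf2 flown to the station (FL-KO) made up 4 groups of 6 mice. The flown mice spent 31 days at the station, and their marrow was taken after the return, so the libraries hold both the time in space and the time since landing. The study states that flown and ground mice could not be sampled in the same place. Flight and the place of sampling therefore cannot be told apart. The knockout was carried by the whole animal, and the cells had been cryopreserved without sorting, so each library averages over all marrow cells. The study reports that erythroid cells from the early proerythroblast on survived very poorly in thawed aliquots. RNA was drawn from the frozen cells directly, and whether this loss reached the libraries was not tested.

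Heme is built in red cell precursors from glycine and succinyl-CoA. The pathway begins in the mitochondrion, runs through porphyrin precursors in the cytosol and returns to the mitochondrion, where iron is inserted. ALAS2, the erythroid form of 5-aminolevulinate synthase, makes the first precursor and sets the pace of the pathway in red cell precursors, where an iron-responsive element in its transcript ties its translation to iron. ALAD joins molecules of that precursor into porphobilinogen, UROS closes the ring, UROD and CPOX shorten its side chains, PPOX oxidises it to protoporphyrin and FECH adds the iron. GATA1 and its partners are known to drive the erythroid expression of the pathway, and Nrf2 is known to act on antioxidant response elements of stress response genes.

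RefSeq promoter windows, from 250 bases before the transcription start to 50 bases after it, were at hand for 6 of the 7 enzymes, and gave 8 windows, of which the 2 of Alad overlap. They were searched on both strands for GATA motifs (AGATAA or AGATAG, and with another first base TGATAA or TGATAG), for a CACCC-type motif (CCNCNCCC) and for the core of an antioxidant response element (TGACNNNGC). A GATA motif was found in the windows of Alas2 and Cpox and in 1 of the 2 windows of Uros, against 29.8% of all 32851 windows of 300 bases. The CACCC-type motif was found in 7 of the 8 windows, against 49.5% of all windows, and the antioxidant response core in 0 of 8, against 12.4% of all. Alas2 and Cpox, the enzymes with the least and the most reduced transcripts after flight, are shown with the bases before their annotated starts, with the GATA motifs in capitals. That of Alas2 lies 81 to 86 bases before the RefSeq start, and the pair in Cpox lies 81 to 91 bases before it and shares 1 base. A further match in the Cpox window lies in the bases that are not shown. The sequences are from RefSeq on GRCm38.p6, plus strand, at chrX:150547167-150547374 for Alas2 and chr16:58669958-58670207 for Cpox.

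Alas2: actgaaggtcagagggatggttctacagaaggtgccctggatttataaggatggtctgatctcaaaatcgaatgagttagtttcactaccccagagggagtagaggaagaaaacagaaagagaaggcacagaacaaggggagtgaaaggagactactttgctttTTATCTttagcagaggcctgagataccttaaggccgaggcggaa

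Cpox: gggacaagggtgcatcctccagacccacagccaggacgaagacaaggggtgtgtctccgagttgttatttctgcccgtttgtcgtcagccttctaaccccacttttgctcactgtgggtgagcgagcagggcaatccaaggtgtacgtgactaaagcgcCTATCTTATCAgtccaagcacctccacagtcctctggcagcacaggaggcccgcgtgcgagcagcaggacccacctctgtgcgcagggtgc

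A match of these letters is a description of the window and not a binding site.

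The enzymes differed widely in level on the TPM scale, which corrects for transcript length. In GC-WT mice, Alas2 stood at 640 ± 180 TPM (SD, n = 6), Fech at 136 ± 33.6, Urod at 59.7 ± 12.5, Cpox at 52.9 ± 14.4, Alad at 51.1 ± 12.8, Ppox at 26.5 ± 5.65 and Uros at 24.9 ± 5.56. Alas2 was the highest and Fech the second highest in every mouse, and the ranges of the 2 did not overlap in any group. The mean of Alas2 was 4.70 times that of Fech in GC-WT mice and 6.91 times in FL-WT mice. Urod came next in all groups, Cpox and Alad traded the fourth and the fifth place, and Ppox and Uros the last places. The ranges of Urod, Cpox and Alad overlapped between neighbours in this order in every group, as did those of Ppox and Uros.

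**Figure D1:**
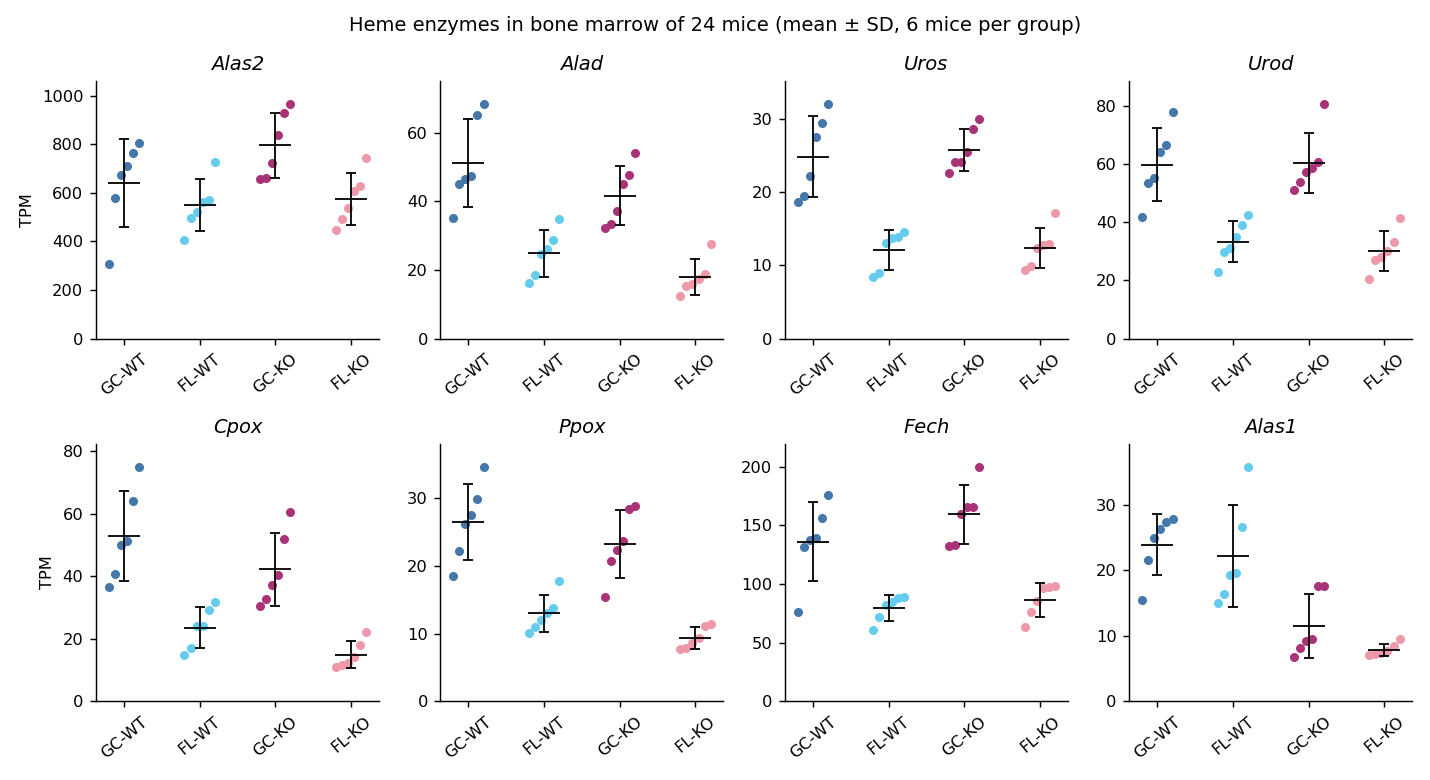
TPM of the 7 enzymes and of Alas1 in each mouse, with the mean and SD of 6 mice per group. In both genotypes the flight mice lie below the ground mice for Alad, Uros, Cpox and Ppox with no overlap, whereas the ranges of Alas2 overlap.

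The table holds TPM and no read counts, so the depth behind a value is unknown and no counting error can be given. Small nuclear and cytoplasmic RNAs (Rn7s1, Rn7s2, Rn7sk, Rpph1 and Rmrp) held 35.4% to 59.6% of TPM in a library, and globin transcripts held 8.62% to 24.3%. In knockout mice the small RNAs took a mean of 44.7% on the ground and 51.2% in flight, and the number of genes above 1 TPM averaged 10361 and 9229. In wild-type mice the same means were 48.8% and 48.0%, and 10958 and 10114 genes. The part of these differences in the values of the enzymes was not tested. Nfe2l2, the gene of Nrf2, was lower in every knockout mouse than in every wild-type mouse, at 2.22 to 7.18 TPM against 11.4 to 27.3 TPM. Over the 12373 genes the log2 fold change had a median of -0.24 after flight in wild-type mice (FL-WT over GC-WT) and of -0.29 in knockout mice (FL-KO over GC-KO). For knockout over wild-type the median was -0.22 on the ground and -0.25 in flight. Differences of the enzymes are therefore also given relative to these medians. Values are log2 fold changes of TPM + 1 with their SE, and adjusted p is from limma over all genes. A gene is said to have fallen or risen at an adjusted p under 0.1, and is counted as a differentially expressed gene (DEG) where the fold change also reached 2.

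In wild-type mice, flight was compared with ground to ask how a stay in space alters the marrow's erythroid programme. The 6 enzymes downstream of Alas2 fell after flight, from a fold change of 0.453 in Cpox to one of 0.599 in Fech (FL-WT over GC-WT), while Alas2 did not pass the test. Alad and Cpox were DEGs, so that 2 of the 7 enzymes were DEGs in this direction against 0.938% of all genes. By adjusted p alone 6 of the 7 fell, against 39.0% of all genes. In 4 of the 7 (Alad, Uros, Cpox and Ppox) every FL-WT mouse lay below every GC-WT mouse, against 4.19% of all genes. Relative to the median of all genes, the 6 enzymes were lower by 0.50 (Fech) to 0.90 (Cpox) on the log2 scale.

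Alas2 ran from 309 to 803 TPM with a median of 693 in GC-WT mice and from 406 to 729 TPM with a median of 543 in FL-WT mice. The lowest of these mice was a ground mouse (mouse 5), and the groups overlapped. The log2 fold change of Alas2 was -0.18 ± 0.18 (adjusted p = 0.45), with a 95% interval from -0.56 to 0.19 that holds none of the values of the other enzymes.

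The enzymes of the cytosolic steps fell together. Alad ran from 35.1 to 68.2 TPM (median 46.8) on the ground and from 16.1 to 34.7 TPM (median 25.3) in flight, and the lowest ground mouse lay just above the highest flight mouse. The log2 fold change of Alad was -1.02 ± 0.19 (adjusted p = 0.000487). Uros ran from 18.7 to 32.0 TPM (median 24.9) on the ground and from 8.46 to 14.6 TPM (median 13.4) in flight, a log2 fold change of -0.98 ± 0.15 (adjusted p = 0.000103). Its groups were clearly apart. Urod ran from 41.6 to 77.8 TPM (median 59.5) on the ground and from 22.8 to 42.4 TPM (median 33.0) in flight, a log2 fold change of -0.82 ± 0.16 (adjusted p = 0.000829). A flight mouse (mouse 7) lay above the lowest ground mouse (mouse 5), and the other 5 flight mice lay below all ground mice.

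Of the enzymes of the last steps, Cpox ran from 36.6 to 74.8 TPM (median 50.7) on the ground and from 14.9 to 31.7 TPM (median 24.1) in flight. With a log2 fold change of -1.14 ± 0.20 (adjusted p = 0.000346), it had the largest difference of the 7. Ppox ran from 18.5 to 34.6 TPM (median 26.8) on the ground and from 10.1 to 17.7 TPM (median 12.5) in flight, a log2 fold change of -0.97 ± 0.16 (adjusted p = 0.000126). Uros and Ppox thus stopped just short of the 2-fold limit. Fech ran from 76.1 to 176 TPM (median 138) on the ground and from 60.9 to 88.7 TPM (median 83.2) in flight, a log2 fold change of -0.74 ± 0.16 (adjusted p = 0.0018). Only ground mouse 5 overlapped with the flight mice for Fech. This mouse was the lowest of its group for each of the 7 enzymes and had 8.62% of its TPM in globins, the lowest share of the 24 libraries. Without it, 4 of the 7 enzymes were DEGs, as Uros came to -1.05 and Ppox to -1.06. Alas2 then came to -0.38 (adjusted p = 0.0634) and passed the test, so that all 7 enzymes fell. FL-WT mouse 5 was likewise the lowest of its group for all 7 enzymes.

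In mice lacking Nrf2, all 7 enzymes fell after flight, Alas2 least (fold change 0.723) and Cpox most (0.366). As many as 4 of the 7 (Alad, Uros, Cpox and Ppox) were DEGs in this direction, against 2.13% of all genes. By adjusted p, 7 of 7 fell against 53.1% of all genes. In 6 of the 7, all but Alas2, every FL-KO mouse lay below every GC-KO mouse, against 18.4% of all genes. Relative to the median of all genes, the enzymes were lower by 0.18 (Alas2) to 1.16 (Cpox) on the log2 scale.

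Alas2 ran from 658 to 964 TPM (median 781) in GC-KO mice and from 446 to 745 TPM (median 573) in FL-KO mice. The FL-KO mice were lower, with 5 of 6 below all GC-KO mice, and the log2 fold change was -0.47 ± 0.18 (adjusted p = 0.0428). Cpox ran from 30.6 to 60.5 TPM (median 38.9) on the ground and from 10.96 to 22.0 TPM (median 13.1) in flight, a log2 fold change of -1.45 ± 0.20 (adjusted p = 2.4e-05). Ppox ran from 15.4 to 28.9 TPM (median 23.0) on the ground and from 7.70 to 11.4 TPM (median 8.96) in flight, a log2 fold change of -1.22 ± 0.16 (adjusted p = 1.45e-05). Both enzymes were far apart between the groups. The log2 fold change was -1.19 ± 0.19 for Alad (adjusted p = 6.21e-05), -1.02 ± 0.15 for Uros (adjusted p = 4.41e-05), -0.998 ± 0.16 for Urod (adjusted p = 7.73e-05) and -0.88 ± 0.16 for Fech (adjusted p = 0.000234). Alad ran from 32.2 to 53.9 TPM on the ground and from 12.3 to 27.5 TPM in flight, and Fech from 132 to 199.7 TPM and from 63.1 to 98.0 TPM. Uros ran from 22.6 to 30.0 TPM on the ground and from 9.33 to 17.1 TPM in flight, and Urod from 51.2 to 80.4 TPM and from 20.6 to 41.4 TPM.

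**Figure D2:**
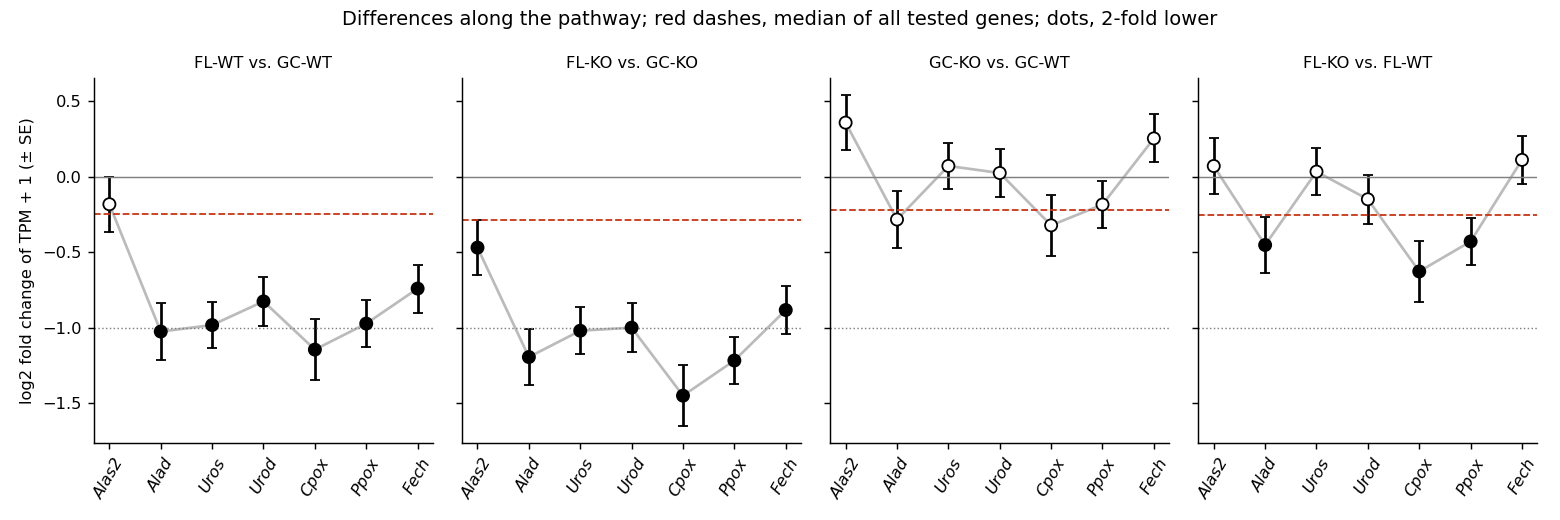
Log2 fold change of TPM + 1 (± SE) of the 7 enzymes in pathway order, in a panel for each comparison. Filled points have an adjusted p under 0.1, the red dashed line is the median of all tested genes and the dotted line is a 2-fold reduction. After flight, Alas2 lies nearest to 0 and Cpox farthest below it in both genotypes.

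The difference between ground and flight was not shown to depend on Nrf2. In the test of the interaction of flight and genotype, 0 of the 7 enzymes passed in limma, against 0.0162% of all genes (2 genes), and 0 of 7 had an unadjusted p under 0.05. The interaction was between -0.31 (Cpox) and -0.04 (Uros) on the log2 scale, and its 95% interval for Cpox ran from -0.89 to 0.28.

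The ground groups were compared to ask what the loss of Nrf2 does without flight. In GC-KO vs. GC-WT, 0 of the 7 enzymes were DEGs, against 3.04% of all genes that were lower DEGs. By adjusted p alone 0 of 7 were lower, against 42.9% of all genes, and 0 of 7 had every knockout mouse below every wild-type mouse, against 9.15% of all genes. Nor did any of the 7 reach an unadjusted p under 0.05 in limma or in the exact permutation test of the rank sum. Alas2 had the highest value of the 7, at 0.36 ± 0.18 (adjusted p = 0.124), and Cpox the lowest, at -0.32 ± 0.20 (adjusted p = 0.224). Fech had 0.26 ± 0.16 (adjusted p = 0.214) and Alad had -0.28 ± 0.19 (adjusted p = 0.251). Uros, Urod and Ppox lay between -0.18 and 0.07. Relative to the median of all genes, Alas2 stood at 0.58 and Fech at 0.48.

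Between the flight groups, the share of enzymes that fell was near that of all genes. Cpox fell in FL-KO vs. FL-WT by 0.63 ± 0.20 on the log2 scale (adjusted p = 0.0136), Ppox by 0.43 ± 0.16 (adjusted p = 0.0274) and Alad by 0.45 ± 0.19 (adjusted p = 0.0545). The other enzymes did not pass the test, with 0.07 ± 0.18 for Alas2, 0.04 ± 0.15 for Uros, -0.15 ± 0.16 for Urod and 0.11 ± 0.16 for Fech. In all, 3 of the 7 were lower by adjusted p against 47.2% of all genes, 0 of 7 were DEGs against 8.36% of all genes, and 0 of 7 had every FL-KO mouse below every FL-WT mouse against 20.6%. For Cpox, 4 of the 6 FL-KO mice lay below all FL-WT mice, and the same held for Ppox. Relative to the median of all genes, Cpox stood at -0.37, Alad at -0.20 and Ppox at -0.18.

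The size of these values depended on how the libraries were scaled to each other. With median-of-ratios scaling the median of all genes lay between -0.01 and 0.04 in the 4 comparisons. Over all genes 16 lower and 19 higher DEGs were then found after flight in wild-type mice (116 and 8 with TPM as deposited), 22 and 8 in knockout mice (264 and 0), and 62 and 35 between the ground groups (376 and 16). By adjusted p 15.9% of all genes then fell and 17.4% rose after flight in wild-type mice, and 21.6% fell and 18.1% rose in knockout mice. The fall of the enzymes after flight was also smaller. In wild-type mice it was between -0.39 (Fech, adjusted p = 0.049) and -0.80 (Cpox, adjusted p = 0.000378), 6 of the 7 still fell and none reached 2-fold, and Alas2 turned to 0.17 (adjusted p = 0.49). In knockout mice 6 of the 7 still fell and only Cpox reached 2-fold (-1.04, adjusted p = 2.92e-05), and Alas2 no longer passed (-0.03, adjusted p = 0.914). The comparisons of genotype changed more. Alas2 then rose in GC-KO vs. GC-WT (0.72, adjusted p = 0.00184), as did Fech (0.61, adjusted p = 0.00163), Uros (0.42, adjusted p = 0.00687) and Urod (0.38, adjusted p = 0.0105), all by less than 2-fold, against 29.8% of all genes that rose. In FL-KO vs. FL-WT the same 4 enzymes rose with this scaling, Fech by 0.55, Alas2 by 0.52, Uros by 0.45 and Urod by 0.28, against 35.2% of all genes. Cpox, Ppox and Alad did not pass the test with it, at -0.21, -0.02 and -0.03. With trends with GC content and length removed, Cpox had -0.33 (adjusted p = 0.086), while Ppox and Alad turned to 0.23 and 0.05.

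**Figure D3:**
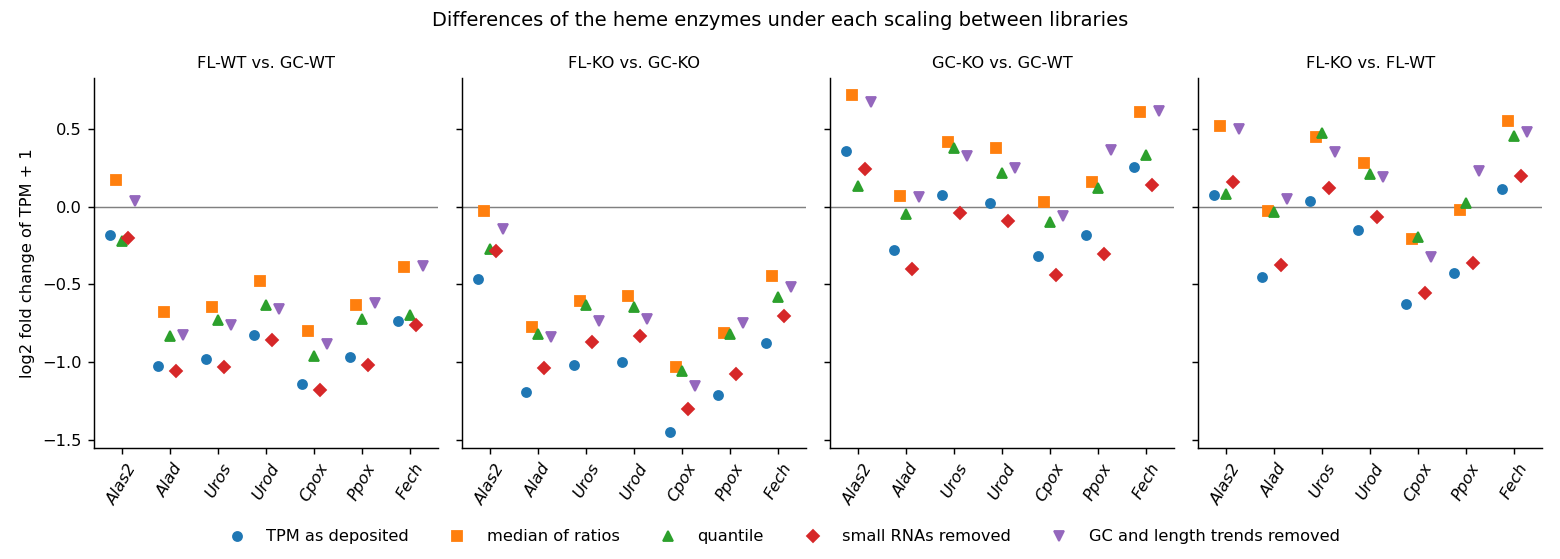
Log2 fold change of the 7 enzymes with TPM as deposited and with 4 other scalings between libraries, in a panel for each comparison. The 6 enzymes after Alas2 are below 0 in both flight comparisons with every scaling. In the genotype comparisons Alas2 and Fech are above 0 with every scaling, whereas the signs of some other enzymes depend on it.

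The balance among the enzymes within a library does not depend on a scaling factor between libraries, apart from the pseudocount. It was taken as the log2(TPM + 1) of an enzyme less the mean of the other 6 in the same mouse, which gave 28 differences (7 enzymes in 4 comparisons). Each difference of means was set against all exchanges of mice between its groups (exact permutation test, two-sided). The smallest p that 6 mice against 6 allow is 0.00216, and the p-values are not adjusted. In all, 16 of the 28 had a p under 0.05.

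The balance lay further towards Alas2 in the flight groups than in the ground groups. Alas2 exceeded the other enzymes by 3.64 ± 0.32 (SD, n = 6) in GC-WT mice, from 3.16 to 4.03, and by 4.40 ± 0.20 in FL-WT mice, from 4.13 to 4.66. Every FL-WT mouse was above every GC-WT mouse, and the difference of 0.77 had an exact permutation p of 0.00216. In knockout mice Alas2 exceeded the others by 4.07 ± 0.24 (SD, n = 6) on the ground, from 3.76 to 4.42, and by 4.72 ± 0.17 in flight, from 4.44 to 4.97. There too the groups did not overlap, and the difference was 0.66 (exact permutation p = 0.00216). Leaving out any 1 mouse left the difference between 0.67 and 0.85 in wild-type mice and between 0.60 and 0.73 in knockout mice, with the groups different at an exact permutation p of 0.00433 each time.

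Cpox moved the other way. It stood below the other enzymes by a mean of -0.51 in GC-WT and -0.86 in FL-WT mice, a difference of -0.36 (exact permutation p = 0.0216), and in knockout mice by -0.87 on the ground and -1.35 in flight, a difference of -0.49 (exact permutation p = 0.00433). Alad also lost ground in wild-type mice, by -0.22 (exact permutation p = 0.0346, but 0.0519 to 0.0693 without GC-WT mouse 3, 5, 6 or 8 or FL-WT mouse 3, 5, 8 or 10), and had -0.19 in knockout mice (exact permutation p = 0.117). Uros, Urod, Ppox and Fech had a p over 0.05 in both flight comparisons. A difference of 1 enzyme enters the reference of the others, so the shift of Alas2 lowers the values of the other 6.

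The balance also differed between genotypes. On the ground, Alas2 was higher in knockout mice by 0.43 (exact permutation p = 0.026) and Fech by 0.31 (exact permutation p = 0.00433), while Cpox was lower by a difference of -0.36 (exact permutation p = 0.026), Alad by -0.32 (exact permutation p = 0.0108) and Ppox by -0.20 (exact permutation p = 0.0411). Urod and Uros did not pass 0.05. The exact permutation p on the ground was 0.0519 for Alas2 without GC-WT mouse 5 or 6 or GC-KO mouse 1 or 2, and 0.0519 for Cpox without GC-WT mouse 6 or GC-KO mouse 1, 2 or 4. For Ppox it was 0.0606 to 0.0823 without GC-WT mouse 5, 7 or 8 or GC-KO mouse 2, 4, 11 or 12. In flight the same 5 enzymes differed in the same directions, Alas2 by 0.32 (exact permutation p = 0.0173), Fech by 0.37 (p = 0.00866), Cpox by -0.49 (p = 0.00216), Alad by -0.29 (p = 0.0173) and Ppox by -0.26 (p = 0.0216). Uros was higher by 0.28 (exact permutation p = 0.00866). For Cpox every FL-KO mouse lay below every FL-WT mouse. By the mean, FL-KO mice had both the highest balance of Alas2 and the lowest of Cpox among the 4 groups. The flight comparisons and the genotype comparisons share groups and are not independent. The balance was not taken with trends with GC content and length removed. With those trends removed, the log2 fold change of Ppox in FL-KO vs. FL-WT was 0.23, which was the median of the 7 enzymes. On the ground, in GC-KO vs. GC-WT, the log2 fold change of Ppox ran from -0.30 to 0.36 over the alternatives of the processing.

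**Figure D4:**
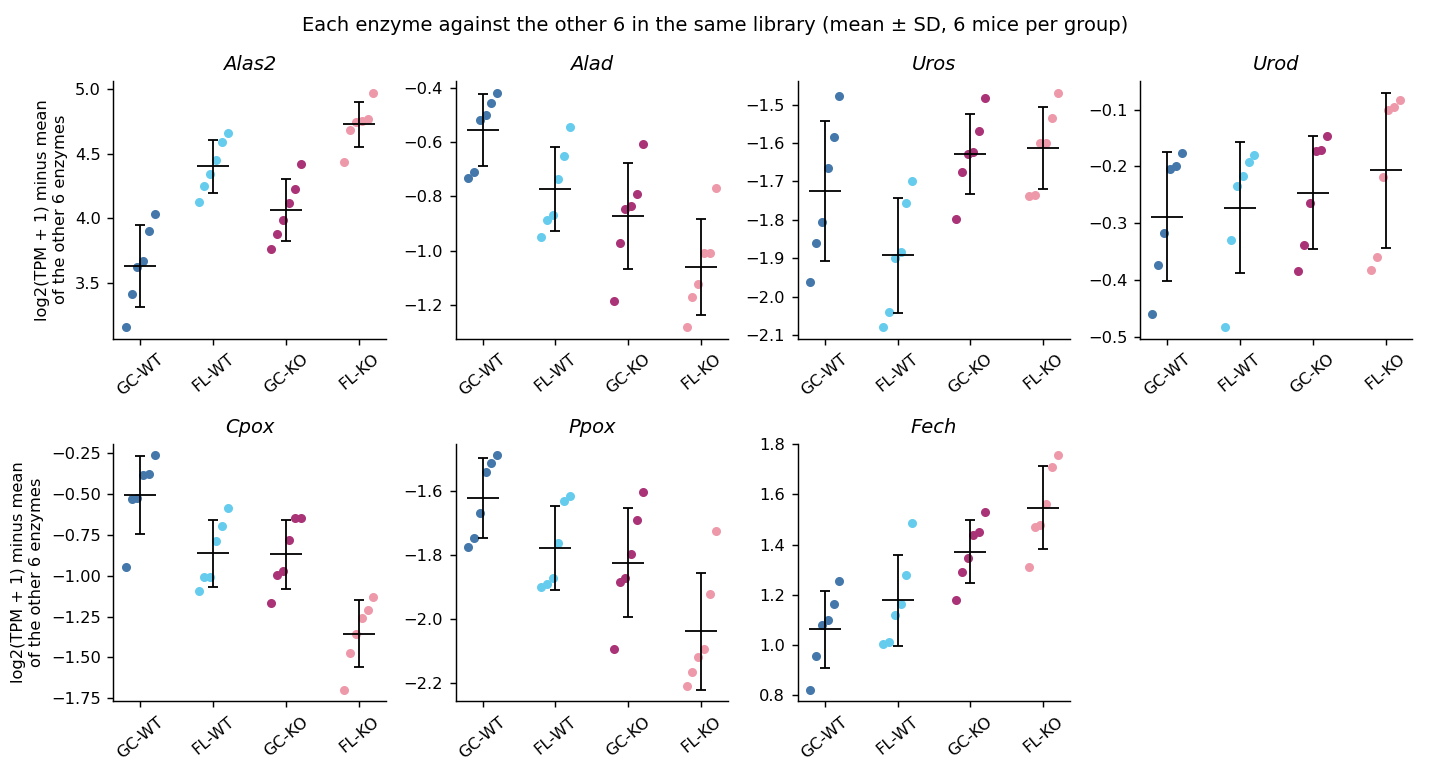
The log2(TPM + 1) of each enzyme less the mean of the other 6 enzymes in the same library, for each mouse with the mean and SD of 6 mice per group. Alas2 and Fech are highest and Cpox, Alad and Ppox lowest in FL-KO mice.

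Across the 24 mice, with group means removed, the enzymes varied together. Pearson's r between pairs of enzymes was between 0.52 (Alas2 and Cpox) and 0.93 (Alad and Urod), with a median of 0.77 over the 21 pairs. Alas2 was closest to Fech (0.87). These points share the library, and with median-of-ratios scaling the range was 0.22 to 0.85 with a median of 0.59. The median r of the mean of the 7 enzymes with the 5018 genes of at least 5 TPM was 0.57 with TPM as deposited and -0.0024 with median-of-ratios scaling.

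Among the 10 genes whose pattern over the 24 mice was most like the mean of the 7 enzymes was Fn3krp (r = 0.98), which encodes a fructosamine-3-kinase related protein. Others were Rab3il1 (0.97), Dhrs11 (0.96), Car2 (0.96), the gene of carbonic anhydrase 2, Fbxo7 (0.96), Ifrd2 (0.96), Tspan33 (0.95), March8 (0.95) and Pabpc4 (0.95), the gene of a cytoplasmic poly(A)-binding protein. With median-of-ratios scaling 8 of the 10 were again among the 10 nearest.

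Alas1, the form of the first enzyme that is made in all tissues, behaved differently from Alas2. It ran from 15.5 to 27.8 TPM (median 25.6) in GC-WT mice, from 15.02 to 35.8 TPM (median 19.4) in FL-WT mice, from 6.80 to 17.7 TPM (median 9.29) in GC-KO mice and from 7.02 to 9.52 TPM (median 7.51) in FL-KO mice. Genotype separated these values more than flight. Alas1 was a DEG, lower in knockout mice, on the ground (-1.06 ± 0.21, adjusted p = 0.000528) and in flight (-1.33 ± 0.21, adjusted p = 1.11e-05). With median-of-ratios scaling it still fell in both, by 0.72 and 0.92 on the log2 scale, under 2-fold, and with trends with GC content and length removed by 0.58 and 0.72. After flight it did not pass the test in wild-type mice (-0.14 ± 0.21, adjusted p = 0.599) or in knockout mice (-0.41 ± 0.21, adjusted p = 0.103). Of the genes of ALAS turnover, Lonp1 was a DEG between the flight groups, with a log2 fold change of -1.003 ± 0.17 (adjusted p = 3.12e-05). Clpx fell there by 0.43 on the log2 scale (adjusted p = 0.00178). With median-of-ratios scaling Lonp1 had -0.70 (adjusted p = 9.92e-06) and Clpx no longer passed, at -0.09 (adjusted p = 0.2). With trends with GC content and length removed, Lonp1 had -0.18 (adjusted p = 0.0464).

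The genes that supply the pathway were tested beside the enzymes. The counts of fallen genes in the lists that follow stand against 39.0% of all genes in wild-type and 53.1% in knockout mice, and those of DEGs against 0.938% and 2.13%. With median-of-ratios scaling these shares are 15.9% and 21.6% for fallen genes, and 17.4% and 18.1% of all genes rose. Of 11 genes of glycine and succinyl-CoA supply and mitochondrial transport, 7 fell after flight in wild-type mice and 9 in knockout mice, and 3 and 4 were DEGs. With median-of-ratios scaling 5 fell and 2 rose in each, and 0 and 1 were DEGs. Slc6a9, the glycine carrier of the cell membrane, had -1.31 ± 0.18 in wild-type (adjusted p = 4.46e-05) and -1.45 ± 0.18 in knockout mice (adjusted p = 1.45e-05). Slc25a37, mitoferrin-1, which brings iron into the mitochondrion, went from 230 ± 65.6 to 97.7 ± 19.0 TPM (SD, n = 6) in wild-type mice, a log2 fold change of -1.20 (adjusted p = 8.86e-05), and had -1.21 in knockout mice (adjusted p = 4.65e-05). Abcb10, a mitochondrial transporter that works with mitoferrin-1, had -1.11 (adjusted p = 5.1e-05) and -1.30 (adjusted p = 1.45e-05). Abcb6, a porphyrin transporter, was a DEG in knockout mice (-1.09, adjusted p = 4.79e-05), at a low 6.97 to 2.73 TPM. In neither genotype comparison was a gene of this list a DEG.

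Of 9 genes of iron-sulphur cluster assembly and iron sensing, 5 fell after flight in wild-type and 8 in knockout mice, and in both only Tfrc, the transferrin receptor, was a DEG (-1.04, adjusted p = 0.00117, and -1.17, adjusted p = 0.000243). Of the 9, 2 and 3 fell with median-of-ratios scaling, and Tfrc had -0.69 and -0.74. On the ground 2 of the 9 fell in knockout mice and 1 rose, Isca1, an assembly factor (0.48 ± 0.16, adjusted p = 0.0191). With median-of-ratios scaling 7 rose there, against 29.8% of all genes. Of 7 genes of heme sensing, export and breakdown, 2 fell after flight in wild-type and 4 in knockout mice, and with median-of-ratios scaling 2 fell in each while 3 and 2 rose, so that these counts lay near or below the shares of all genes with TPM as deposited. Eif2ak1, the heme-regulated kinase that holds back globin translation when heme is short, had -0.93 ± 0.17 in wild-type mice (adjusted p = 0.000328) and was a DEG in knockout mice (-1.08 ± 0.17, adjusted p = 4.6e-05). Hmox1, the inducible heme oxygenase, did not pass after flight (0.08, adjusted p = 0.751, and -0.23, adjusted p = 0.278). Hmox1 fell in knockout mice on the ground (-0.48, adjusted p = 0.0296) and in flight (-0.79, adjusted p = 0.000583). With median-of-ratios scaling it no longer passed on the ground (-0.13, adjusted p = 0.527) but still fell in flight (-0.36, adjusted p = 0.0756). With this scaling it also rose after flight in wild-type mice (0.42, adjusted p = 0.0779).

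Markers of the erythroid lineage were read in the same libraries, all of them above 0. Of 11 genes of the red cell membrane and surface, 10 were DEGs after flight in each genotype, with a median of -1.16 in wild-type and -1.23 in knockout mice, against -0.97 and -1.02 for the 7 enzymes. With median-of-ratios scaling all 11 still fell in both (medians -0.81 and -0.81), 2 and 3 of them as DEGs. Slc4a1 (band 3) went from 438 to 193 TPM in wild-type mice and from 328 to 93.1 TPM in knockout mice. The summed level of this list ran from 679 to 1391 TPM in GC-WT, 316 to 554 in FL-WT, 673 to 1333 in GC-KO and 293 to 472 in FL-KO mice. Of 8 erythroid transcription factors, all 8 fell in both flight comparisons, 1 as a DEG in wild-type (Zfpm1, the GATA1 cofactor FOG1, -1.18) and 5 in knockout mice (Zfpm1, -1.94, and Klf1, -1.50, among them). With median-of-ratios scaling 5 of the 8 fell in wild-type and 8 in knockout mice. Gata1 itself had -0.83 (adjusted p = 0.00124) and -1.15 (adjusted p = 3.58e-05).

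The globin transcripts stood apart from the enzymes. Of 5 genes listed, 4 were matched, and 0 of 4 passed the test in limma in either flight comparison, with 0 of 4 at an unadjusted p under 0.05. Hbb-bs, a beta-globin gene, had 0.23 (adjusted p = 0.308) in wild-type mice and was level in knockout mice (adjusted p = 1.0). The medians of the 4 were 0.09 and -0.12. With median-of-ratios scaling the medians were 0.44 and 0.31, and 4 of 4 rose in wild-type and 1 of 4 in knockout mice. The 2 alpha-globin genes are near-identical, as are the 2 beta-globin genes, so their division is uncertain. Set against the summed globins of the same library, all 7 enzymes were lower after flight in both genotypes, Alas2 by a difference of -0.30 in wild-type and -0.39 in knockout mice (exact permutation p = 0.00216 for each, with no overlap). This reference was chosen after seeing the data. Between genotypes on the ground, Alas2 against globins differed by 0.0016 (exact permutation p = 0.965). However, 4 of the 7 enzymes were lower against globins in GC-KO mice. Cpox differed by -0.68 and Alad by -0.64 (exact permutation p = 0.0152 for each). Ppox differed by -0.54 (exact permutation p = 0.00649) and Urod by -0.33 (exact permutation p = 0.0455). Uros and Fech, at -0.29 and -0.10, did not pass 0.05. Between the flight groups 3 of the 7 had an exact permutation p under 0.05, Alad, Cpox and Ppox, all lower in FL-KO mice.

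**Figure D5:**
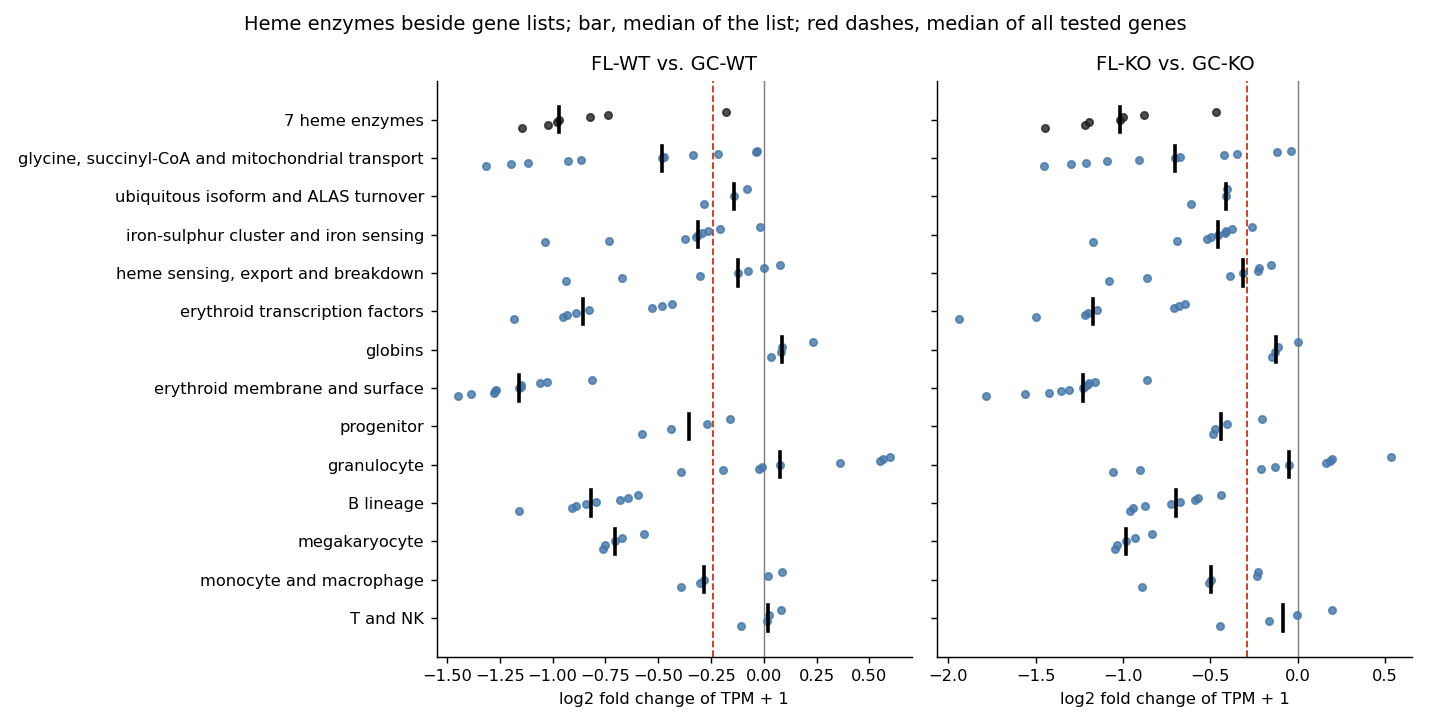
Log2 fold change after flight of the 7 enzymes and of the genes of 13 lists, in wild-type (left) and knockout mice (right), with a point for each gene, a bar at the median of the list and a red dashed line at the median of all tested genes. The medians of the enzymes, the red cell membrane genes and the erythroid transcription factors lie below that of all genes. Those of the B lineage and megakaryocyte genes do so as well. The globins lie near 0, above the median of all genes.

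Markers of other marrow cells moved as well, on the scale of TPM as deposited. All 8 B lineage genes fell in both flight comparisons (medians -0.82 and -0.70), 3 and 5 of 5 megakaryocyte genes fell (medians -0.70 and -0.98), and 2 and 3 of 4 progenitor genes fell (medians -0.35 and -0.44). These counts stand against the 39.0% and 53.1% of all genes that fell. The megakaryocyte and progenitor lists hold only 5 and 4 genes, and whether their counts exceed these shares was not tested. Of 9 granulocyte genes, 4 rose in wild-type mice, and 1 rose and 2 fell in knockout mice (medians 0.08 and -0.05), against 0.994% and 0.299% of all genes that rose. The medians of 5 monocyte and macrophage genes were -0.28 and -0.50, and those of 4 T and NK cell genes were 0.02 and -0.08. With median-of-ratios scaling 6 and 5 B lineage genes, 0 and 3 megakaryocyte genes and 1 and 1 progenitor genes fell, and 6 and 6 granulocyte genes rose, against 17.4% and 18.1% of all genes. The summed granulocyte level ran from 29975 to 55820 TPM in GC-WT, 44532 to 62174 in FL-WT, 41820 to 64176 in GC-KO and 50033 to 67308 in FL-KO mice. Between genotypes, all 4 progenitor genes fell in knockout mice on the ground and in flight (medians -0.78 and -0.71). Of the erythroid transcription factors 6 and 7 of 8 fell, against 42.9% and 47.2% of all genes. With median-of-ratios scaling 3 and 3 progenitor genes and 2 and 5 of the factors fell, against 3445 and 3857 of 12373 genes. Of the 4 globins 2 and 1 rose, against 387 and 236 of 12373 genes. With median-of-ratios scaling all 4 rose in both, against 29.8% and 35.2%. By flow cytometry of thawed marrow, the study reports a higher frequency of early erythroid progenitors in flown mice of both genotypes. It left out the later erythroid cells, which survived thawing poorly. How far these shifts enter the values of the enzymes was not tested. In the RNA of whole marrow, fewer red cell precursors and less transcript in each of them cannot be told apart.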

How the data were processed

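The table deposited by the authors gives TPM, estimated with RSEM 1.3.1 after mapping to mm10 (GRCm38) with STAR 2.6.1, per the labels and the study's methods. Its columns sum to 999999.5 to 1000001.1, it holds no counts, and all 24 columns were matched to samples by title. The log2 of TPM + 1 was fitted in limma 3.58.1 (R 4.3.3) with a mean per group over all 24 libraries and Benjamini-Hochberg adjustment over the 12373 genes with a TPM above 1 in at least 1 library. A fold change on this scale understates the change of genes at a few TPM. For a DEG the adjusted p had to be under 0.1 and the difference 2-fold or more. Single values were tested with exact two-sided permutation tests (scipy 1.17.1). Positions, lengths and symbols came from GENCODE M21. The members and gene lists were chosen with earlier results of these data known. The text names the 7 enzymes, Alas1, at most 4 DEGs of each list with members that stood against it, and the 10 genes nearest to the enzymes by Pearson's r, of which 1 is not reported here. The fit was tested on simulated data. Alternatives were other scalings (median of ratios, quantiles, 5 small RNAs removed, trends with GC content and length removed), a pseudocount of 0.1, no filter or one on 6 libraries, a mean trend in limma, the compared groups alone, other thresholds, a replicate block and each library left out.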

Additional observations from a re-analysis of the deposited data

Results flagged for a closer look

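Of 60 sets of 6 mice checked for an outlying mouse, 1 was found, and chance gives about 1 in 20. Urod in GC-KO mouse 11 was at 80.43 TPM, and its gap to the next mouse was 0.674 of the range of the group, above the limit of 0.625 for 6 samples. The same mouse was the highest of its group for 6 of the 7 enzymes, and its Urod balance against the other 6 enzymes (-0.17) lay within the range of the group (-0.39 to -0.15). Without it, the log2 fold change of Urod after flight in knockout mice was -0.91 (adjusted p = 0.000394), against -0.998 with it.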

How the results depend on the processing

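The count of enzymes that were DEGs after flight depended on the scaling and on the 2-fold limit, near which several enzymes lay. In wild-type mice (2 of 7) it was 0 with median-of-ratios scaling, quantile normalization or trends with GC content and length removed, 4 with the small RNAs removed or a pseudocount of 0.1, and 6 with no minimum fold change. Leaving out 1 library gave 1 to 4, with 1 without GC-WT mouse 6 or 8 or FL-WT mouse 3 or 5, and 4 without GC-WT mouse 3 or 5 or FL-WT mouse 7. In knockout mice (4 of 7) it was 1 with median-of-ratios scaling, quantile normalization or trends removed, 7 with no minimum fold change and 3 to 5 with 1 library left out. In FL-KO vs. FL-WT (0 of 7) it was 3 with no minimum fold change. No DEG among the enzymes changed direction. By adjusted p alone and with no filter, 0 of the 7 fell in FL-KO vs. FL-WT, against 3 with the filter. In FL-KO vs. GC-KO 6 then fell, against 7 with the filter. Of the falls by adjusted p alone, Ppox in FL-KO vs. FL-WT (-0.43) turned to 0.021 with quantile normalization and 0.23 with trends removed, and Alad (-0.45) to 0.049 with trends removed. Over all genes, the lower and higher DEGs of the 4 comparisons (116 and 8, 264 and 0, 376 and 16, 1034 and 12) became 32 and 10, 25 and 7, 86 and 33, and 309 and 28 with quantile normalization, and 26 and 10, 20 and 3, 50 and 18, and 157 and 20 with trends removed. They became 494 and 16, 925 and 15, 946 and 37, and 1984 and 45 with a pseudocount of 0.1, and 230 and 8, 189 and 5, 902 and 21, and 1186 and 24 with the small RNAs removed. The 16 differences in balance were 19 with a pseudocount of 0.1, 21 against the summed globins (a reference chosen after seeing the data) and 13 to 18 with 1 library left out. The mean of all 7 enzymes as reference only rescales the values and leaves each p as it is. The cause of these changes was not tested. With the mouse number as a replicate block, 2 and 4 enzymes were DEGs after flight and 0 in the interaction, no call of the 7 enzymes changed, and Alas1 passed the test after flight in knockout mice (-0.41, adjusted p = 0.0429). Over all genes the block gave 20 lower and 2 higher DEGs in the interaction, against 2 and 0. Mice of the same number in ground and flight groups had correlations of deviations from -0.026 to 0.273, and 5 of 12 correlated best with their own number, so the numbers were not taken as pairs. The depth is unknown.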
